A study of Mus musculus with 4 samples.

Results

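Mediator is the multisubunit coactivator that connects transcription factors bound at enhancers with RNA polymerase II at promoters. Its head and middle modules contact the polymerase, its tail is the main docking surface for activators, the scaffold subunit Med14 links them, and a detachable kinase module of Cdk8 or Cdk19, cyclin C, Med12 and Med13 (or their paralogues) can block that contact. In embryonic stem cells Mediator is known for high occupancy at the enhancers of pluripotency genes, together with cohesin. The mRNAs of its subunits are described here after degradation of RPB3, the polymerase subunit encoded by Polr2c. Members were all genes of the deposited expression table with a symbol made of Med and a number, together with Med12l, Med13l, Cdk8, Cdk19 and Ccnc, which gave 33 of 30282 genes. They fell into 7 head, 9 middle and 9 tail genes, the backbone gene Med14 and 7 genes of the kinase module.

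In the V6.5 mouse embryonic stem cells used, grown with inhibitors of GSK3 and MEK, RPB3 carried the mini degron mAID, which auxin makes unstable, with GFP. The IAA group (2 libraries) received 1 µg/ml doxycycline for 12 h, which induces the F-box protein TIR1, and then 500 µM of the auxin IAA for 12 h. The Untreated group (2 libraries) received the same doxycycline alone, so both groups carry the degron and TIR1. Poly(A) RNA was sequenced, with Drosophila S2 cells as a spike-in. The protocol also mentions depletion for 1 h, a difference that could not be resolved. The labels do not say whether the line is a single clone or whether the libraries came from separate cultures, so p-values reflect only how these libraries vary, which may be technical. No degron-free cells with IAA were analysed here.

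Depth, as recovered whole reads, was 9194432 and 8779401 in the IAA libraries and 8724737 and 8794680 in the Untreated libraries. Values below are normalised read counts, that is reads divided by the size factor that the authors applied to each library. Polr2c mRNA, which does not measure the degraded protein, had 3242 and 3158 in the IAA libraries against 2726 and 2885 in the Untreated libraries. The summed level of 8 stem cell markers was 53340 and 51740 in the IAA libraries and 52518 and 53310 in the Untreated libraries, and all 8 were detected. The sum hides changes in both directions. At a limma adjusted p under 0.05, Klf4 (log2 fold change 0.52) and Nanog (0.33) rose. Dppa5a (-0.36), Tdgf1 (-0.27), Pou5f1 (-0.24) and Zfp42 (-0.15) fell. Over all genes tested, 11.1% rose and 28.9% fell. With the median-of-ratios factors described below, 4 of the 8 rose and 3 fell, beside 20.4% and 20.5% of all genes. Feeder fibroblast markers, of which 4 of 8 were in the table, summed to 117 and 135 in the IAA libraries against 191 and 242 in the Untreated libraries, and Thy1 and Col1a1 among them fell (log2 fold changes -0.78 and -0.76; limma adjusted p = 0.000235 and 0.0212). Trophoblast markers summed to 502 to 512 in the IAA libraries against 495 to 511 in the Untreated libraries, with Tfap2c, a gene that stem cells also express, holding nearly all of it. Primitive endoderm markers summed to 185 to 217 after IAA and to 188 to 196 without it. Early lineage markers summed to 1374 to 1456 in the IAA libraries against 983 to 1089 in the Untreated libraries, mostly Nes. Of 4 tested, Nes and Eomes rose at either scaling (log2 fold changes 0.55 and 0.29; limma adjusted p = 1.68e-06 and 0.0359) and 2 did not pass. The part of these markers in the Mediator values was not tested. None of the markers present among the deposited genes was at 0 in every library. Feeder fibroblast markers absent from those genes have no value here. In such bulk RNA, fewer cells of a type and less RNA per cell cannot be told apart.

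Mediator mRNAs changed little and in both directions after RPB3 degradation, with genes of the kinase module moving both ways. All 33 members passed the minimum mean of 10, at 105 to 1939 normalised reads per library, and none changed by a log2 fold change of 1 or more. By limma over all 14928 genes tested, at an adjusted p under 0.05, 6 members rose, 7 fell and 20 did not pass. Over all genes tested, 11.1% rose and 28.9% fell, so that 13 called members of 33 stand beside 39.9% of all genes called. The median log2 fold change was 0.07 over the members and -0.11 over all genes tested, and 22 of 33 members lay above that of all genes. In 24 of 33 members the IAA and Untreated values did not overlap, against 68.1% of all genes tested. Mediator genes took 0.224% and 0.226% of all recovered reads in the IAA libraries, against 0.207% and 0.202% in the Untreated libraries. This share does not depend on the size factors.

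How many members count as risen or fallen depended on the scaling of the libraries. With median-of-ratios factors over the mouse genes, which set the median of all genes to -0.01, a shift of 0.10, 18 members rose and 3 fell; the background was then 40.8% of all genes called, with 20.4% risen and 20.5% fallen. The 6 members that rose at the deposited scaling, Med4, Med7, Med10, Med13, Med13l and Med28, also rose with these factors. Of the 7 that fell, Med20, Med12l and Cdk8 also fell, whereas Cdk19, Ccnc, Med16 and Med24 no longer passed. The other 12 that rose with these factors were Med1, Med6, Med9, Med17, Med19, Med21, Med22, Med25, Med26, Med27, Med29 and Med30. No called member changed sign. The median of the members lay 0.18 above that of all genes at either scaling. In the authors' deposited table, 2 of the 33 members, Med20 and Cdk8, had an adjusted p under 0.05, both lower after IAA, beside 2.47% of genes higher and 9.57% lower there, and the authors labelled all 33 unchanged.

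**Figure D1:**
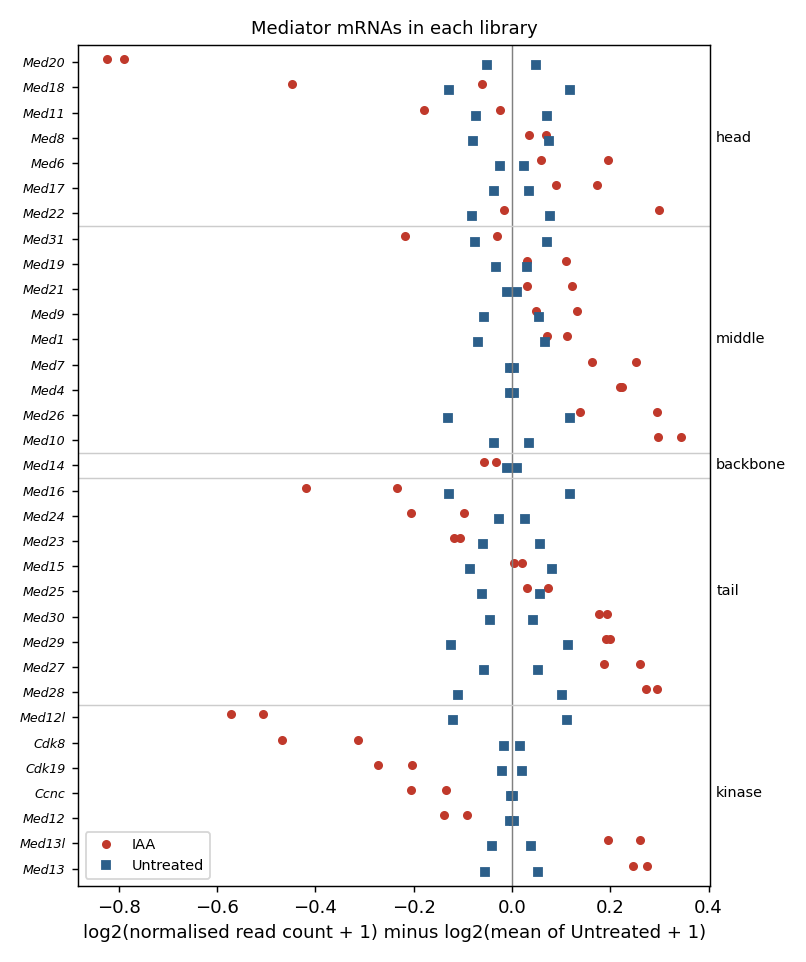
Level of each Mediator mRNA in each library, on the log2(normalised read count + 1) scale, relative to the Untreated mean of the same gene; each point is 1 library (2 IAA, 2 Untreated), and genes are grouped by module. Both IAA points of Med20, Med12l and Cdk8 lie left of both Untreated points, and those of Med13, Med13l, Med10 and Med4 lie right of them.

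**Figure D2:**
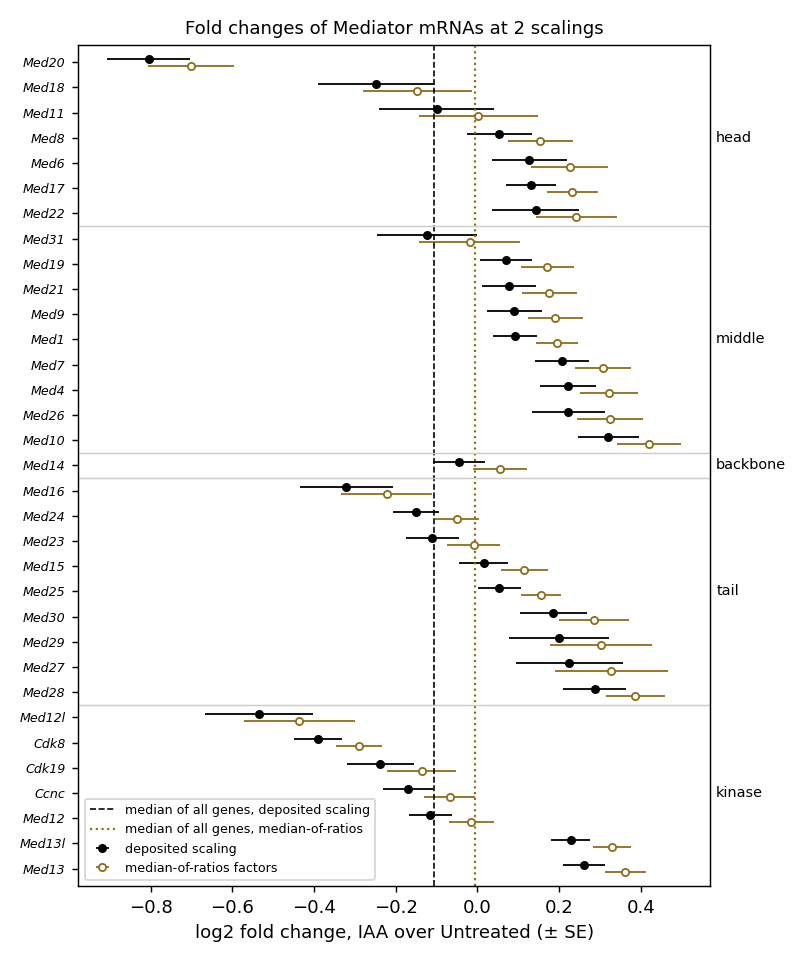
Log2 fold change of IAA over Untreated with its standard error (2 libraries per group) at the deposited scaling (filled) and with median-of-ratios factors (open); vertical lines mark the median of all 14928 genes, -0.11 and -0.01. The choice of scaling moves all members together by about 0.10 and leaves their order as it is, with Med20 lowest and Med10 highest.

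In the head module, the main contact with the polymerase, only Med20 passed the test at the deposited scaling, beside 39.9% of all genes tested. Med20, which pairs with Med18 at the edge of the head, had 168 and 164 normalised reads in the IAA libraries, against 281 and 301 in the Untreated libraries (mean 166 ± 2.83 after IAA and 291 ± 14.1 without it, SD, n = 2 each). The groups were far apart, and the log2 level fell by 0.81 (SE 0.10; limma adjusted p = 3.36e-06), the largest change of any member. The log2 fold change was -0.70 with median-of-ratios factors and -0.81 with an adjusted p of 0.00923 in the authors' deposited table. Fits without 1 library on unrounded values, here and below, had 14928 total degrees of freedom in limma. Each gene's variance then came from the trend over all genes, so passing there does not reflect a gene's own spread. For Med20, leaving out any 1 library in this way gave -0.85 to -0.75. Its partner Med18 had 152 and 116 in the IAA libraries and 172 and 145 in the Untreated libraries, groups that overlap (log2 fold change -0.25; limma adjusted p = 0.176), although it passed without IAA replicate 1 on unrounded values (-0.44). The remaining 5 head genes, Med6, Med8, Med11, Med17 and Med22, had log2 fold changes of -0.10 to 0.14 and did not pass, although Med6, Med17 and Med22 rose with median-of-ratios factors. As a share of reads from the 7 head genes, which needs no size factor, Med20 made up 7.32% and 7.53% in the IAA libraries, against 12.5% and 13.3% in the Untreated libraries. Their 95% Wilson intervals, 6.31 to 8.75% after IAA and 11.1 to 14.8% without it, cover counting error only.

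Med20 (chromosome 17, 47611582 to 47624418, plus strand, GENCODE M21 on GRCm38) starts 90 bases from Bysl, a ribosome biogenesis gene on the other strand, and the neighbours moved in opposite directions at either scaling. Bysl had 1216 and 1191 in the IAA libraries against 967 and 978 in the Untreated libraries (log2 fold change 0.31, SE 0.05; limma adjusted p = 0.000126), and it also rose with median-of-ratios factors. Within a library, Med20 took 12.2% and 12.1% of the reads of the pair after IAA, against 22.5% and 23.5% without it. Med22, a head subunit, starts 87 bases from the large ribosomal subunit gene Rpl7a. Rpl7a fell at either scaling, with 5591 and 5581 in the IAA libraries against 7926 and 8086 in the Untreated libraries (log2 fold change -0.52, SE 0.03; limma adjusted p = 5.06e-10). Med22 had 315 and 253 in the IAA libraries against 242 and 270 in the Untreated libraries, which overlap, and its share of the reads of the pair was 5.34% and 4.33% in the IAA libraries against 2.96% and 3.23% in the Untreated libraries. Med29 (172 and 173 in the IAA libraries against 163 and 138 in the Untreated libraries) starts 243 bases from Paf1, which did not pass (0.12) but rose with median-of-ratios factors (0.22). The stretches between these starts are shown because each serves a pair of genes whose mRNAs differed in their change; they are read in the direction of the Med gene from the RefSeq promoter table (GRCm38.p6), and capitals mark a GC box (GGGCGG on either strand).
Med20 to Bysl, chr17:47611493-47611581, plus strand: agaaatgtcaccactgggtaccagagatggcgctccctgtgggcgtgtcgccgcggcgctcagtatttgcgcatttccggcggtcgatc
Med22 to Rpl7a, chr2:26910678-26910763, minus strand: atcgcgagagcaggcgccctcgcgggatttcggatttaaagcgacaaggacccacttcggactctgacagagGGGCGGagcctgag
The first stretch is 89 bases long with 61.8% G or C and holds none of the 6 motifs searched, and the second is 86 bases long with 61.6% G or C and holds a GC box.

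Reads of Med20 may not all come from Med20. Its annotated exons overlap by 1569 bases a processed pseudogene of Kpna2 on the opposite strand, and 27.1% of the 50-base stretches of its transcripts occur in another gene's transcripts. Kpna2, a nuclear import receptor, had 3484 and 3258 in the IAA libraries against 3307 and 3243 in the Untreated libraries, which overlap, and the readthrough gene model Gm20517 had at most 8 normalised reads in a library. How reads of shared stretches and of opposite strands were assigned is not given in the sources used here, and their part in the Med20 value was not tested.

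The middle module, the hinge between polymerase and tail, had 3 members that rose, none that fell and 6 that did not pass. Over all genes tested, 11.1% rose and 28.9% fell. Med10 had 480 and 496 in the IAA libraries against 381 and 400 in the Untreated libraries (mean 488 ± 11.3 after IAA and 390.5 ± 13.4 without it, SD, n = 2 each). The rise of 0.32 on the log2 scale (SE 0.08; limma adjusted p = 0.00203) was the highest of all members. However, 88.7% of the 50-base stretches of Med10 transcripts also lie in Gm26819, an annotated noncoding gene on the opposite strand (4168 shared exon bases), and for Med7 the share was 18.2%, with the noncoding gene 2310031A07Rik. These values may hold reads of either gene. Med4, which pairs with Med9, had 588 and 589 in the IAA libraries against 503 and 506 in the Untreated libraries (0.22; limma adjusted p = 0.0134). Med7, which pairs with Med21 and Med31, had 677 and 637 in the IAA libraries against 570 and 567 in the Untreated libraries (0.21; limma adjusted p = 0.0173). In all 3 genes each IAA library was above each Untreated library, and each also rose with median-of-ratios factors. In fits without 1 library, on unrounded values, Med10 had log2 fold changes of 0.29 to 0.36. In those fits Med7 did not pass without IAA replicate 1 (0.16), and Med4 did not pass without either IAA replicate (0.22 each).

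Med1 and Med26, the middle subunits named most often with particular partners, did not pass. Med1, the subunit that nuclear receptors bind, had 1405 and 1447 in the IAA libraries against 1401 and 1275 in the Untreated libraries (log2 fold change 0.09, SE 0.05). Med26, which recruits elongation complexes with Ell and Eaf proteins, had 477 and 428 in the IAA libraries against 355 and 422 in the Untreated libraries (0.22, SE 0.09; limma adjusted p = 0.0519). For neither did the groups overlap, although the Med1 groups came within 4 reads of each other. In fits without 1 library, on unrounded values, Med1 had log2 fold changes of 0.03 to 0.16 and Med26 of 0.10 to 0.35. Both genes rose with median-of-ratios factors. Med9, Med19 and Med21 had log2 fold changes of 0.07 to 0.09 and rose with those factors too. Thus 8 of 9 middle genes rose there, against 20.4% of all genes tested. Med31 was the remaining one (-0.12, or -0.02 with those factors). The scaffold gene Med14, which is on the X chromosome, had 623 and 613 in the IAA libraries against 642 and 633 in the Untreated libraries, which is -0.04 on the log2 scale (SE 0.06; limma adjusted p = 0.618), and passed at neither scaling.

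Tail genes gave 1 rise, 2 falls and 6 that did not pass, beside 11.1% of all genes tested risen and 28.9% fallen. Med28, at the junction of tail and head, had 589 and 580 in the IAA libraries against 445 and 515 in the Untreated libraries (mean 584.5 ± 6.36 after IAA and 480 ± 49.5 without it, SD, n = 2 each; log2 fold change 0.29, SE 0.08; limma adjusted p = 0.00523). Med16, whose yeast counterpart holds the activator-binding end of the tail, had 198 and 174 in the IAA libraries against 253 and 213 in the Untreated libraries (-0.32, SE 0.11; limma adjusted p = 0.0303). Med24, whose protein sits beside Med16 and Med23, had 1046 and 1127 in the IAA libraries against 1183 and 1228 in the Untreated libraries (-0.15, SE 0.06; limma adjusted p = 0.0364). The groups of these 3 genes did not overlap, but the falls of Med16 and Med24 did not pass with median-of-ratios factors (-0.22 and -0.05). In fits without 1 library, on unrounded values, Med28 did not pass without Untreated replicate 1 (0.18), Med16 without IAA replicate 2 (-0.23) or Untreated replicate 1 (-0.20), and Med24 without IAA replicate 1 (-0.10) or Untreated replicate 2 (-0.12). Med27, Med29 and Med30, which lie with Med28 in the upper tail, had log2 fold changes of 0.19 to 0.23, with each IAA library above each Untreated library, and did not pass at the deposited scaling but passed with median-of-ratios factors or library totals. Of the activator-binding subunits, Med15, the docking site of SREBP and Smad proteins, had 0.02, Med23, bound by Elk1, had -0.11, and Med25, bound by ETV factors, had 0.05. None of these 3 passed at the deposited scaling, and Med25 rose with median-of-ratios factors (0.16).

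Within the kinase module, changes ran in opposite directions: the kinase genes and cyclin C fell at the deposited scaling, of which Cdk8 alone also fell with median-of-ratios factors, while the Med13 genes rose at either scaling. Cdk8, the kinase that phosphorylates transcription factors and the polymerase tail, had 943 and 847 in the IAA libraries against 1185 and 1159 in the Untreated libraries (mean 895 ± 67.9 after IAA and 1172 ± 18.4 without it, SD, n = 2 each). The groups did not overlap, and the level fell by 0.39 on the log2 scale (SE 0.06; limma adjusted p = 3.08e-05). The log2 fold change was -0.29 with median-of-ratios factors, and -0.39 with an adjusted p of 0.0135 in the authors' deposited table. Its paralogue Cdk19 had 340 and 324 in the IAA libraries against 397 and 386 in the Untreated libraries (-0.24, SE 0.08; limma adjusted p = 0.0255). Ccnc, the cyclin that activates either kinase, had 713 and 679 in the IAA libraries against 781 and 784 in the Untreated libraries (-0.17, SE 0.06; limma adjusted p = 0.0346). The falls of Cdk19 and Ccnc did not pass with median-of-ratios factors (-0.14 and -0.07). In fits without 1 library, on unrounded values, Cdk8 had log2 fold changes of -0.47 to -0.31. In those fits Cdk19 did not pass without IAA replicate 2 (-0.20) or Untreated replicate 1 (-0.22), and Ccnc passed only without IAA replicate 1 (-0.20). Part of the Ccnc value may belong to Tstd3, a gene on the opposite strand whose exons overlap those of Ccnc by 276 bases and which had 178 and 218 in the IAA libraries against 253 and 261 in the Untreated libraries; this was not tested.

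Med13 and Med13l, the paralogous subunits through which the kinase module docks on the core complex, rose by similar amounts. Med13 (chromosome 11, 86267033 to 86357602, minus strand) had 1603 and 1571 in the IAA libraries against 1374 and 1275 in the Untreated libraries (mean 1587 ± 22.6 after IAA and 1324.5 ± 70.0 without it, SD, n = 2 each; log2 fold change 0.26, SE 0.05; limma adjusted p = 0.00043). Med13l had 1854 and 1939 in the IAA libraries against 1664 and 1574 in the Untreated libraries (0.23, SE 0.05; limma adjusted p = 0.000855). Exons of Med13 overlap by 800 bases those of Brip1os on the opposite strand. Both genes rose with median-of-ratios factors, whereas in the authors' deposited table their adjusted p was 0.0789 and 0.113. In fits without 1 library, on unrounded values, Med13 had 0.21 to 0.32 and Med13l had 0.19 to 0.27. Med12, the X-linked subunit that activates Cdk8 through cyclin C, had 1026 and 1059 in the IAA libraries against 1126 and 1132 in the Untreated libraries, groups that do not overlap (-0.12, SE 0.05; limma adjusted p = 0.0944). Med12l, its paralogue, was read at the low level of 108 and 113 in the IAA libraries against 174 and 148 in the Untreated libraries (mean 110.5 ± 3.54 after IAA and 161 ± 18.4 without it, SD, n = 2 each), and fell (-0.53, SE 0.13; limma adjusted p = 0.00311; -0.44 with median-of-ratios factors). In fits without 1 library, on unrounded values, Med12l had -0.65 to -0.42. Med12l shares 1948 exon bases with Igsf10 on the opposite strand, which had 46 and 52 in the IAA libraries against 49 and 52 in the Untreated libraries.

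Shares of reads within a library, which no size factor can move, describe the same split inside the kinase module. The genes were grouped by the directions seen above in the same reads, with Med12 and Med12l in neither group. The shares are therefore no separate support. As parts of one total they also depend on each other. Med13 and Med13l together took 52.5% and 53.7% of the reads of the 7 kinase module genes in the IAA libraries, against 45.3% and 44.1% in the Untreated libraries. Cdk8, Cdk19 and Ccnc together took 30.3% and 28.3% in the IAA libraries, against 35.3% and 36.1% in the Untreated libraries. The 95% Wilson intervals of the groups did not meet in either case. Within paralogue pairs the differences were smaller in percentage points. Cdk8 took 73.5% and 72.3% of the reads of Cdk8 and Cdk19 after IAA and 74.9% and 75.0% without it, and Med13l took 53.6% and 55.2% of the reads of Med13 and Med13l after IAA and 54.8% and 55.2% without it, in both cases with intervals that overlap between groups. Med12l took 9.54% and 9.61% of the reads of Med12 and Med12l in the IAA libraries against 13.4% and 11.6% in the Untreated libraries, where the intervals of 7.95 to 11.5% and 9.83 to 15.5% also overlap. The kinase module as a whole took 31.3% and 31.3% of all Mediator reads in the IAA libraries, against 32.7% and 31.5% in the Untreated libraries.

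**Figure D3:**
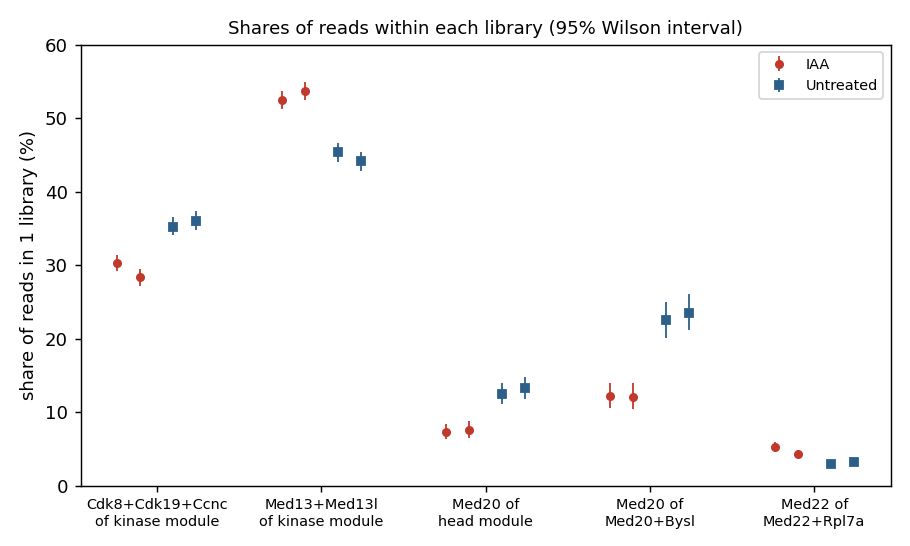
Share of recovered reads (%) within each library, with 95% Wilson intervals, for parts of the kinase module, for Med20 within the head module, and for Med20 and Med22 within the pairs they form with a divergent neighbour; red circles are the 2 IAA libraries and blue squares the 2 Untreated libraries. Med13 and Med13l took 52.5% and 53.7% of kinase module reads after IAA against 45.3% and 44.1% without it, and Med20 took 12.2% and 12.1% of the reads of the pair it forms with Bysl after IAA against 22.5% and 23.5% without it.

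Promoters are shown for Cdk8 and Med13, the genes of the kinase module with the smallest adjusted p among those that fell and those that rose, as the 250 bases before the RefSeq start (GRCm38.p6). Capitals mark the GC box (GGGCGG on either strand, copies that overlap run together) and the E-box (CACGTG).
Cdk8, chr5:146231000-146231249, plus strand: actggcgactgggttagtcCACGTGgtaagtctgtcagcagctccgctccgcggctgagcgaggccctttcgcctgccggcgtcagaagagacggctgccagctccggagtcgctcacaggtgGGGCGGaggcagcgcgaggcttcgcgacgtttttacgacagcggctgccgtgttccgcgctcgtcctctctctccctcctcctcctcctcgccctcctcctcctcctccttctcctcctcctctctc
Med13, chr11:86357597-86357846, minus strand: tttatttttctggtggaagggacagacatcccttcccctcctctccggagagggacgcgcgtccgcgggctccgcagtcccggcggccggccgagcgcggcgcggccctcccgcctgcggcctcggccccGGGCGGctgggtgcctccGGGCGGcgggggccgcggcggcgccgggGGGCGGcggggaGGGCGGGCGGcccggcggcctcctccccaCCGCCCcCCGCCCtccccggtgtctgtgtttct
The Cdk8 window has 66.4% G or C with a GC box and an E-box, and the Med13 window has 80.0% G or C with several GC boxes and none of the other motifs. Of the 33 members, 28 matched the RefSeq promoter table. A GC box lay in the window of 19 of the 28, or 67.9%, against 35.4% of all 27025 genes there. An ETS motif (CGGAAG) was found in 32.1% of the 28 against 15.3% of all genes, and a CCAAT box (CCAAT) in 39.3% against 37.5%. A TATA box (TATAAA) was found in 3 of 28 (10.7%) against 14.3%, an E-box in Cdk8 and Med17 (7.14%) against 6.86%, and the NRF1 motif in 0 against 0.877%. Each was searched on both strands, and a gene counted once if any of its starts had a match. Members had a median of 56.8% G or C in this window, against 52.4% over all promoters. The genes and promoters compared were not restricted to those expressed in these cells, whereas all members were expressed. The differences may therefore not be particular to Mediator genes. These matches describe the letters only.

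Members differed widely in level per length. Per kilobase of all annotated exons, Med19 (348 normalised reads per kb after IAA and 332 without it), Med9 (343 after IAA and 322 without it) and Med30 (322 after IAA and 283 without it) were highest. Med12l was lowest, with 8.66 after IAA and 12.6 without it. Exon lengths include those of rare transcripts, and neighbours such as Med19 and Med9 lay closer than the spread between libraries of either gene. Per kilobase of the longest principal transcript, Med21 came first (1152 after IAA and 1092 without it) and Med12l was again last (10.0 after IAA and 14.6 without it), while Med10, at place 24 by exons, came at place 2 in the Untreated libraries. Part of the Med21 value may come from an Rps26 pseudogene that overlaps its exons by 348 bases. By either length, Cdk8 stood above Cdk19 (per kb of exons, 91.0 and 56.8 after IAA, and 119 and 67.0 without it) and Med12 stood above Med12l (135 and 8.66 after IAA, 147 and 12.6 without it).

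**Figure D4:**
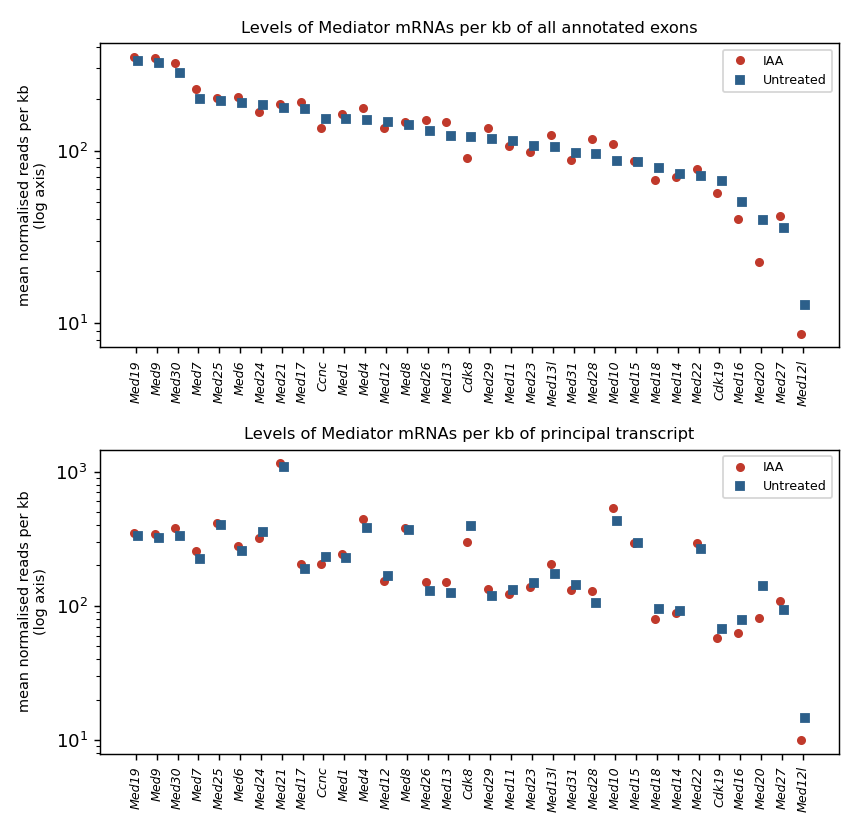
Mean normalised reads per kilobase (log axis) of each Mediator mRNA in the IAA (red circles) and Untreated (blue squares) groups, means of 2 libraries each, divided by the length of all annotated exons (top) or of the longest principal transcript (bottom), in the order of the Untreated values on top. Med12l lies lowest in both panels, at 8.66 after IAA and 12.6 without it per kb of exons, and the order of the other genes depends on the length used.

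Changes were also set beside gene structure. Across the 33 members, Spearman's rho between log2 fold change and gene length was -0.04, against -0.05 over the 14919 tested genes found in the annotation. For the number of exons it was -0.24 in the members and -0.14 over all, for exon length -0.21 and 0.01, and for mean level 0.14 and 0.07. These are descriptions across genes of the same 4 libraries, and genes are not independent replicates.

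Genes that work with Mediator were counted on lists compiled with earlier results of these data known. The shares to set beside each count are 11.1% risen and 28.9% fallen of all genes tested. With median-of-ratios factors, the other scaling below, they are 20.4% and 20.5%. Of 12 RNA polymerase II subunits, 5 rose and 1 fell, or 6 and 0 at the other scaling, and their median was 0.00 against -0.11 over all genes. Among the genes that passed, Polr2j (0.46), Polr2a, the catalytic subunit (0.29), and Polr2i (-0.27, not passing with median-of-ratios factors) had the largest changes. Of 10 genes of cohesin, the ring complex that holds enhancer loops, and its loaders, Mau2 rose (0.29), Smc1a fell (-0.17) and 8 did not pass (4 rose and 0 fell at the other scaling, which loses the Smc1a call). Of 11 readers and writers of histone acetylation at enhancers, 6 rose and 1 fell, or 7 and 1 at the other scaling, and their median was 0.12. Brd2, a bromodomain protein, had 5506 and 5453 in the IAA libraries against 3925 and 4111 in the Untreated libraries (0.45), and Crebbp (0.41) and Brd3 (0.41) followed. Of 22 tested factors on a list of 23 that bind a particular Mediator subunit, 2 rose and 8 fell (9 and 8 with median-of-ratios factors). The largest falls on this list were those of Etv1 and Etv4, ETS factors whose human proteins bind Med25, and of Smad3. Etv4 had 326 and 289 in the IAA libraries against 730 and 695 in the Untreated libraries (-1.21), Etv1 had 38 and 36 in the IAA libraries against 95 and 91 in the Untreated libraries (-1.31), and Smad3 had 176 and 166 in the IAA libraries against 261 and 263 in the Untreated libraries (-0.61). Stem cell genes with strongly Mediator-occupied enhancers split, with 8 of 20 higher and 6 lower, or 11 and 5 at the other scaling, and a median of 0.06: Prdm14 (0.61) and Tbx3 (0.57) rose and Tcl1 (-0.59) fell. The calls in these lists are from limma, and the genes named, apart from Polr2i and Smc1a, kept their call with median-of-ratios factors.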

How the data were processed

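Poly(A) RNA-seq of 4 libraries was used through 1 table of 30282 genes. Per the submitters' processing notes, the tools were STAR, Bowtie2, cutadapt 1.18, featureCounts, DESeq2, SAMtools and deepTools, with builds dm6 and mm10, without roles. How reads were assigned to genes and strands is not given in the sources used here. Per library, the authors deposited a score: the read count over a size factor, rounded. The deposited mean column is a signal, their unrounded mean. From it the factors came out as 0.98 and 0.95 (IAA) and 0.88 and 0.87 (Untreated), and whole reads were recovered for 100% of genes (tolerance 0.001 on the mean). The source of these factors, mouse or spike-in reads, is not stated. Divided by their geometric mean they were 1.07 and 1.03 (IAA) and 0.96 and 0.95 (Untreated). They differ from the median-of-ratios factors over the mouse genes, which were 1.04 and 0.99 (IAA) and 0.99 and 0.99 (Untreated). The authors also deposited log2 fold changes with a standard error (a score), p-values and adjusted p-values; printed values of theirs are credited to that table.

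Genes with a mean of at least 10 (14928 genes) were tested by limma 3.58.1 (R 4.3.3) on the scale log2(value + 1). An empirical Bayes trend and Benjamini-Hochberg adjustment were used. The fitting step was also run on simulated counts of a fixed dispersion, which was not estimated from these libraries. Only the median estimated change had to match there, so the run does not cover false calls in the real libraries. Fold changes on this scale understate changes of low genes. Shares of recovered reads carry 95% Wilson intervals, which cover counting error only, since reads without molecular identifiers are not independent molecules. Members and lists were chosen with earlier results of these data known. By rule, values in every library are given for called members, for the member of largest change in a module with none called, and for Med1, Med14, Med26 and paralogue pairs. Outside Mediator, the rule names Polr2c, the 3 called genes of largest change in each list, and genes that start within 1 kb (1000 bases) of a called member on the other strand. Med18, Med22 and Med29, the neighbours of Med22 and Med29, and genes that share sequence with members (Kpna2, Tstd3, Igsf10) were added after their values were seen. Positions are GENCODE M21 on GRCm38 (mm10). Alternatives were other thresholds, filters, pseudocounts, scalings and tests, a replicate block and each library left out; leaving out libraries on unrounded values and principal transcript lengths were added after seeing the data.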

Additional observations from a re-analysis of the deposited data

How the results depend on the processing

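At an adjusted p under 0.01, 4 members were higher and 3 lower (1037 and 3060 of all genes). With no filter on low values 0 members were higher and 1 lower (179 and 638 of all genes); limma's total degrees of freedom were then 3.20 in place of 20.0, and 7873 genes had an unadjusted p under 0.05. Fits without 1 library, where a lone library is taken to vary as the pair does, called 0 members and 0 genes on the rounded values, at 2.55 to 2.59 degrees of freedom and with 4734 to 5070 genes at an unadjusted p under 0.05; the member median was 0.032 to 0.087. On unrounded values, the same fits called 4 to 7 members higher and 4 to 7 lower (1146 to 1608 and 3471 to 3939 of all genes), with a median of 0.033 to 0.086 (0.040 without Untreated replicate 1); 4 members fell without IAA replicate 2 or without Untreated replicate 1. Median-of-ratios factors gave 18 members higher and 3 lower (3039 and 3054 of all genes, median 0.17), and library totals 18 and 3 (3083 and 2983 of all genes, median 0.18). Of all calls, 27.7% were higher at the deposited scaling and 49.9% with median-of-ratios factors. By the authors' deposited tests, 0 members were higher and 2 lower (284 and 1100 of all genes). The cause of the differences between tests was not tested. Fits without 1 library on unrounded values had 14928 total degrees of freedom. Their variances came from the trend over all genes, so calls in them do not show how a gene varies between replicates. Pseudocounts of 0.5 and 5, a minimum mean of 100, unrounded values and voom on recovered reads kept 6 to 7 members higher and 7 lower. Of all genes, these runs called 1503 to 1789 higher and 3754 to 4549 lower. With the replicate block 7 were higher and 7 lower (1647 and 4311 of all genes); same-numbered libraries share only a number (correlation of deviations -0.065), so it was not used. None of the 13 members called at the deposited scaling changed sign in any alternative run. With 2 libraries per group, standard errors of the members reached 0.14, which limits what small changes of the lower members can show.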
